A study of Mus musculus with 48 samples.

Results

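The comparison described here asked whether long-term MSX-3 changed hippocampal gene expression differently in APP/PS1 and in WT mice. It used all 24 hippocampus arrays of the 48 arrays, 6 in each of 4 groups taken from the sample titles: WT on water, WT on MSX-3, APP/PS1 on water and APP/PS1 on MSX-3 (WT Water, WT MSX3, APP Water and APP MSX3 in the titles). The quantity followed throughout is the interaction, that is, the MSX-3 effect in APP/PS1 mice minus the MSX-3 effect in WT mice, or equally the genotype effect on MSX-3 minus the genotype effect on water. The APP/PS1 mice were heterozygous males of the APPswe/PS1dE9 line, whose transgenes stand under the promoter of the prion protein gene, and the WT mice were their littermates on a C57Bl6/J background. The drug groups drank water with 0.3 g/L of MSX-3, a prodrug that releases the A2A receptor antagonist MSX-2, and the water groups drank plain water. Treatment began at 3 months of age per the sample labels and at 4 months per the deposited series text, and it ended at 9 to 10 months in both. Hippocampus and cortex came from the same mice, 1 mouse per array in each tissue.

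The A2A receptor is a receptor for adenosine that couples to Gs and raises cyclic AMP, which activates protein kinase A and the transcription factor CREB. It is densest on neurons of the striatum, whereas in the hippocampus it is sparse, sits at synapses and on astrocytes, and modulates glutamate release. In amyloid models, microglia around plaques switch on a set of genes for lipid sensing, lysosomes and chemokines, part of the tissue mounts a type I interferon response, and astrocytes become reactive.

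Levels are given on the log2 scale relative to the 75th percentile of the array, so that 0 stands for a bright transcript and -5 for one close to background, and a difference of 1 is a 2-fold change. Levels of different probes are not comparable. Per array, 55.8 to 74.6% of spots were well above background, and the median correlation of an array with the other hippocampus arrays ran from 0.977 to 0.988. The Prnp probe, whose gene lends its flanking sequences to the transgenes, was between 5.12 and 5.60 on the 12 WT arrays and between 7.0 and 7.33 on the 12 APP/PS1 arrays, and all 24 labels matched it. The arrays were scanned on 2 days, and day 2 held 4 of the 6 arrays of WT mice on water, 2 of WT mice on MSX-3, 2 of APP/PS1 mice on MSX-3 and none of APP/PS1 mice on water. They lay on 7 slides, unevenly over the groups. WT mice on water were on 4 slides, WT mice on MSX-3 on 6, APP/PS1 mice on water on 5 and those on MSX-3 on 3. Slide 6 in scan order held WT arrays only. With the slide as a random block, the correlation within a slide was 0.32. The dissected tissue was not equally pure. The mean level of 9 choroid plexus genes was between 1.70 and 2.65 on 6 arrays and between -2.74 and -0.86 on the other 18. These 6 arrays were 3 of WT mice on water and 1 in each other group, so that the choroid plexus genes moved with the interaction and values without these arrays are given below.

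**Figure D1:**
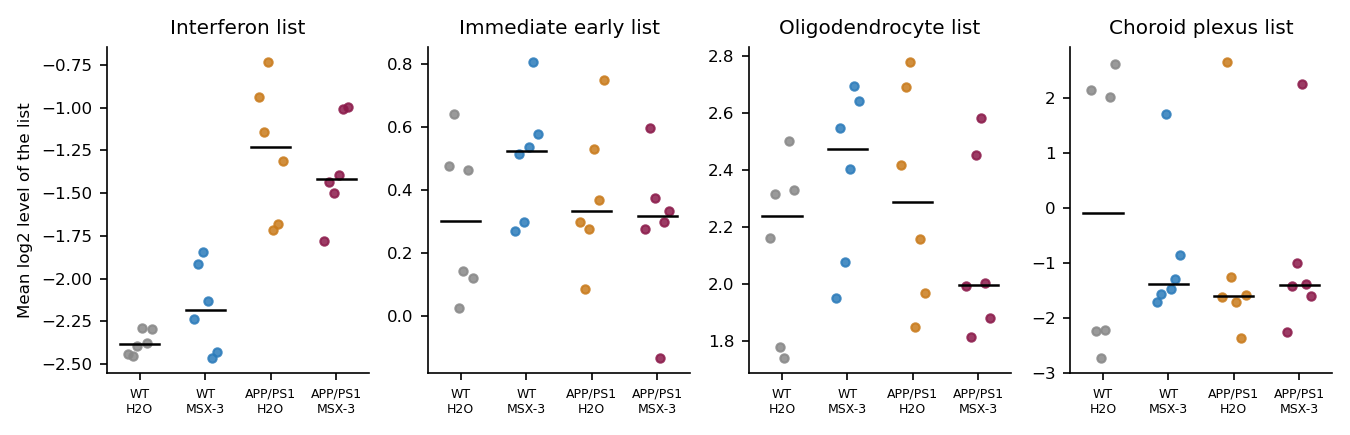
Mean log2 level of 4 gene lists (vertical axes, relative to the 75th percentile of the array) on each hippocampus array, by group, 6 arrays each, with a line at the group median. The 6 arrays rich in choroid plexus genes lie between 1.70 and 2.65 in the right panel, and in the left panel the APP/PS1 arrays lie above the WT arrays without an order between water and MSX-3.

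No probe passed the test for an interaction. Of 38128 probes kept, 0 (0%) reached an adjusted p under 0.05 with a change of at least 1.5-fold, 0 did so without the fold limit, and the smallest adjusted p in limma was 0.8895. At an unadjusted p under 0.05 there were 1852 probes, or 4.86% of those tested, 1278 (3.35%) with a positive and 574 (1.51%) with a negative interaction. In the same 4-group model, MSX-3 against water gave 0 called probes in WT mice and 0 in APP/PS1 mice, with 2010 and 1199 at an unadjusted p under 0.05. The genotype effect was called for 190 probes on water (0.498%), 180 of them higher in APP/PS1 mice, and for 149 probes on MSX-3 (0.391%), 147 of them higher. Of these, 113 were called in both treatments, which do not share arrays.

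The absence of calls did not bound every gene equally. The 95% interval of the interaction had a median half-width of 0.40, a 1.32-fold change, and lay wholly within 1.5-fold in either direction for 19967 probes (52.4%). With the probes split by mean level into 3 equal sets, 82.6% of the brightest set and 15.3% of the dimmest set were bounded in this way. The sign of the interaction also went with brightness. Positive values made up 54.9% of all probes, 71.3% of the dimmest set, whose median was 0.19, and 32.5% of the brightest set, whose median was -0.06. With quantile normalization the positive share was 48.0% in the dimmest and 47.1% in the brightest set, and the split of the probes at an unadjusted p under 0.05 turned to 776 positive and 889 negative. That split was 598 to 534 without the 6 arrays rich in choroid plexus genes and 597 to 535 with normexp background correction. The positive share of the dimmest set was 52.8% with the slide and 59.0% with the scan day as a fixed block. Gene lists were read against these background values. They held 301 genes in 23 lists, of which 10 genes had no kept probe with a name.

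Adora2a, the target of the drug, showed no detectable interaction. Its level ran from -3.53 to -1.56 with a median of -3.03 in WT mice on water, from -3.60 to -2.82 (median -3.25) in WT mice on MSX-3, from -4.63 to -2.15 (median -3.22) in APP/PS1 mice on water and from -3.67 to -2.55 (median -3.25) in APP/PS1 mice on MSX-3. The 4 groups overlapped throughout, and a single WT array on water (mouse 71) stood well above the rest. That array also had the highest mean level of striatal genes of all hippocampus arrays, -0.17, and was rich in choroid plexus genes. The next highest Adora2a levels were -2.15 (APP/PS1 water mouse 259) and -2.55 (APP/PS1 MSX-3 mouse 293). Their striatal means were -0.33 and -0.21, against group medians between -0.62 and -0.52. Whether striatal tissue in the dissection has a part in the Adora2a values was not tested. The Adora2a interaction was 0.51 with a 95% interval from -0.43 to 1.45 (adjusted p 0.892), which excludes neither no change nor a doubling. Without WT water mouse 71 it was 0.25. On the first scan day alone it was 1.22. Adora1, which codes for the inhibitory A1 receptor, was bright and tightly measured, with group medians between 3.93 and 4.09 and an interaction of -0.18 (-0.42 to 0.06), which was -0.38 on the first scan day and -0.07 without the 6 arrays rich in choroid plexus genes. App had an interaction of -0.19 (-0.46 to 0.09) and Prnp one of 0.05 (-0.17 to 0.28).

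Of the 11 kept genes of adenosine receptors, transporters and enzymes, 8 had a negative interaction, the median was -0.11, and 1 was at an unadjusted p under 0.05. That gene was Adora3, which codes for the A3 receptor, a receptor found on microglia in the mouse brain. Its group medians were -2.45 and -2.27 in WT mice on water and on MSX-3 and -1.72 and -1.84 in APP/PS1 mice, with an interaction of -0.32 (-0.63 to -0.02, adjusted p 0.8895). Nt5e, the ectonucleotidase CD73 that makes adenosine outside cells, had -0.46 (-0.96 to 0.04). The 15 genes of A2A receptor signalling (adenylyl cyclases, phosphodiesterases, kinase subunits and CREB family members) had a median of -0.09, with 13 negative, 0 at an unadjusted p under 0.05 and 12 bounded within 1.5-fold. The lowest of them was Adcy8, a calcium-stimulated adenylyl cyclase, at -0.45 (-1.07 to 0.17).

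The microglial genes around plaques kept their genotype effect with and without MSX-3. The 25 genes of this list had a median interaction of 0.01, 13 positive and 12 negative, with 1 of each at an unadjusted p under 0.05 and 16 bounded within 1.5-fold. Their median genotype effect was 0.68 on water and 0.65 on MSX-3. The genotype effect was called for 14 of them in each, against 0.498% of all probes on water and 0.391% on MSX-3. The mean level of the list lay between 1.2 and 1.44 in APP/PS1 mice on water and between 1.22 and 1.46 in those on MSX-3, against -0.17 to 0.14 in all 12 WT mice. In whole tissue, more cells of a type and more RNA per cell cannot be told apart.

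Clec7a had the largest interaction of this list. Clec7a codes for Dectin-1, a pattern receptor that marks plaque microglia. Its level ran from -4.48 to -3.87 (median -4.22) in WT mice on water, from -5.36 to -4.16 (median -4.39) in WT mice on MSX-3, from -1.19 to -0.61 (median -0.96) in APP/PS1 mice on water and from -1.0 to -0.29 (median -0.62) in APP/PS1 mice on MSX-3. The genotypes did not overlap, whereas the treatments did within each genotype. The genotype effect was 3.30 on water and 4.02 on MSX-3, and the interaction was 0.72 (0.20 to 1.23), a 1.64-fold difference that did not pass the adjustment (p 0.8895). It came about as much from lower values in WT mice on MSX-3 (-0.40) as from higher values in APP/PS1 mice on MSX-3 (0.32), and it stayed between 0.43 and 0.81 in the alternatives tried.

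The other microglial genes with strong genotype effects had intervals across 0, on either side. Tyrobp, the signalling adaptor of Trem2, gave -0.12 (-0.49 to 0.24), Trem2, a lipid receptor, 0.01 (-0.30 to 0.33) and Cd52, a surface glycoprotein, -0.09 (-0.50 to 0.33). Ccl3, a chemokine gene, was between -2.37 and -1.08 in APP/PS1 mice on water and between -1.61 and -1.12 in those on MSX-3, with an interaction of 0.71 (-0.23 to 1.64) that ranged from 0.25 to 1.06 over the alternatives. In WT mice it was well above background on only 3 of 6 arrays on water and 4 of 6 on MSX-3. Its neighbour Ccl4 gave 0.58 (-0.14 to 1.29). Cst7, which codes for the lysosomal protease inhibitor cystatin F, had the largest genotype effects, 4.57 on water and 4.92 on MSX-3, and an interaction of 0.35 (-0.54 to 1.25), which ran from 0.056, without WT water mouse 310, to 0.63 over the alternatives. Itgax, the CD11c integrin gene, was above background on 1 WT array of 6 in each treatment and gave 0.32 (-0.47 to 1.12), which turned to -0.12 under normexp background correction.

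Cd68, Tlr2 and Gfap had narrower intervals than Ccl3, Ccl4, Cst7 and Itgax. Cd68, a lysosomal protein of phagocytes, had an interaction of 0.03 (-0.24 to 0.31), with -0.18 and 0.14 on dimmer Cd68 probes. On its brightest probe the genotype effects were 1.21 on water and 1.24 on MSX-3. Tlr2, an innate immune receptor, gave 0.12 (-0.19 to 0.43). For Gfap, the intermediate filament of astrocytes, the levels were 2.26 to 2.77 in WT mice on water, 2.59 to 2.85 in WT mice on MSX-3, 2.75 to 3.56 in APP/PS1 mice on water and 3.33 to 3.77 in APP/PS1 mice on MSX-3, and the interaction was 0.10 (-0.26 to 0.45), with -0.22 on a second Gfap probe. Csf1, a growth factor for microglia, was the lowest of the list at -0.30 (-0.53 to -0.06). The genes of resting microglia had a median of -0.02 over 15 genes, 7 positive and 8 negative. The lowest was Sparc, a matrix protein gene also active in endothelium, at -0.42 (-0.72 to -0.12). The highest was Olfml3 at 0.64 (-0.09 to 1.37), with -0.03 on a dimmer Olfml3 probe.

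**Figure D2:**
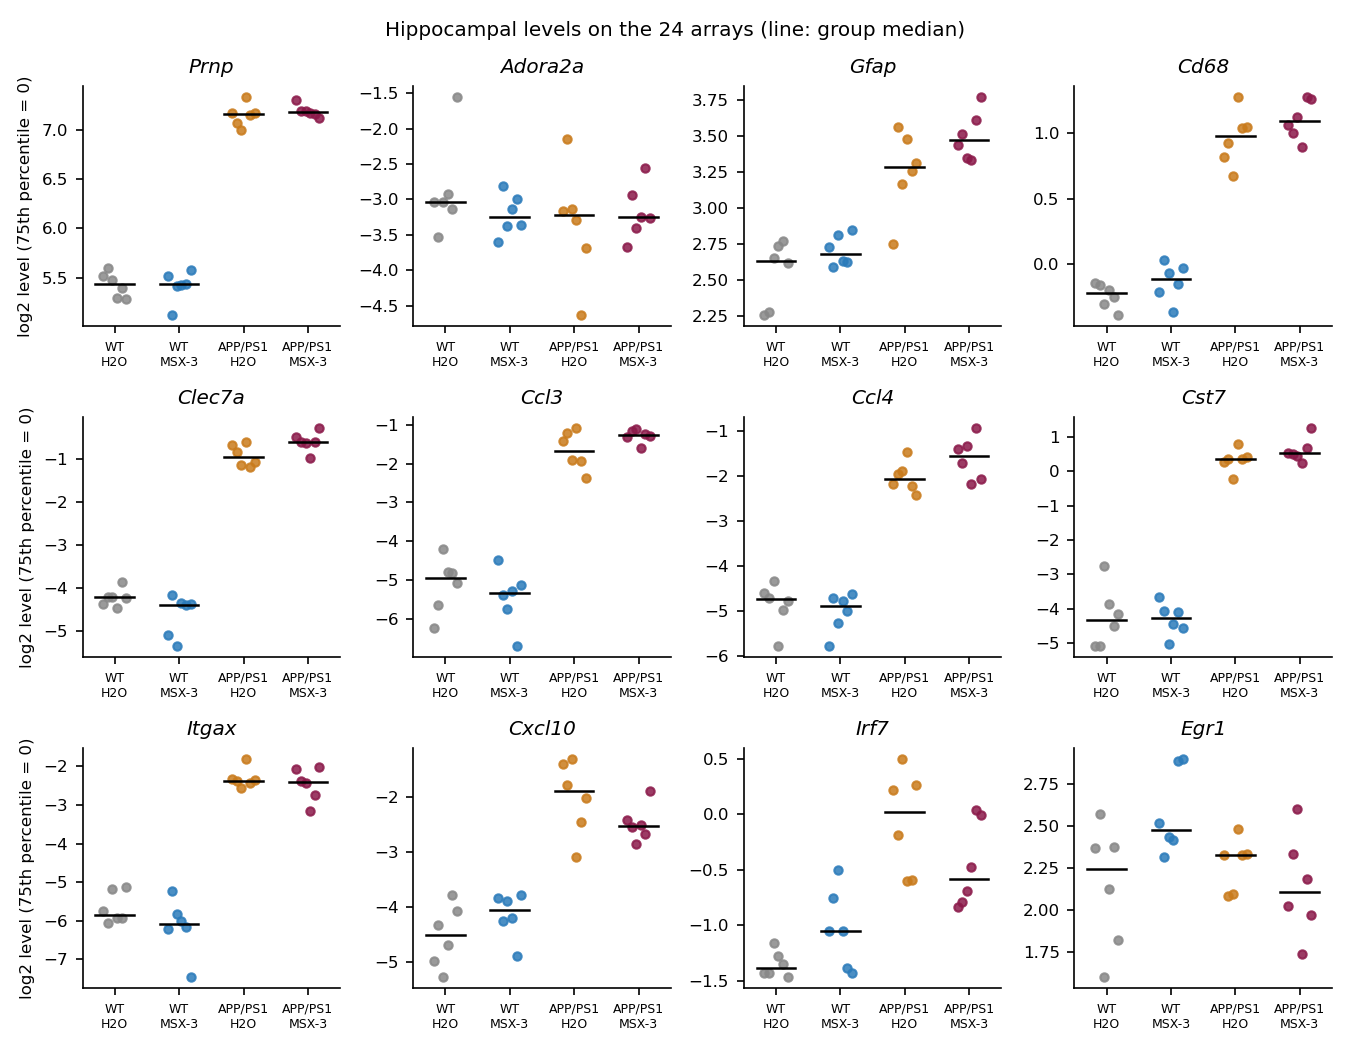
Log2 level (vertical axes, relative to the 75th percentile of the array) of 12 genes on the 24 hippocampus arrays, by group, 6 arrays each, with a line at the group median. Prnp separates the genotypes in both treatments, Clec7a runs up to -0.29 in APP/PS1 mice on MSX-3, and the water and MSX-3 arrays of APP/PS1 mice overlap for every gene shown.

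The genotype effect as a whole was followed on probes chosen from the cortex arrays, which share the mice but not the arrays. Of the probes raised in APP/PS1 cortex, 591 probes of 458 genes were kept in the hippocampus. Their median hippocampal genotype effect was 0.50 on water and 0.49 on MSX-3, their median interaction was -0.01, and 285 were positive and 306 negative. At an unadjusted p under 0.05 there were 14 positive and 11 negative probes, 4.86% being the share over all probes, and 273 of the 591 were bounded within 1.5-fold. The genotype effect was called for 167 of them on water, for 142 on MSX-3 and for 109 in both. Over all 38128 probes these counts were 190 (0.498%), 149 (0.391%) and 113. The 55 probes lowered in APP/PS1 cortex had 4 members bounded within 1.5-fold, a median genotype effect of -0.37 on water and -0.12 on MSX-3, and a median interaction of 0.19, which is also the median of the dimmest set of all probes.

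**Figure D3:**
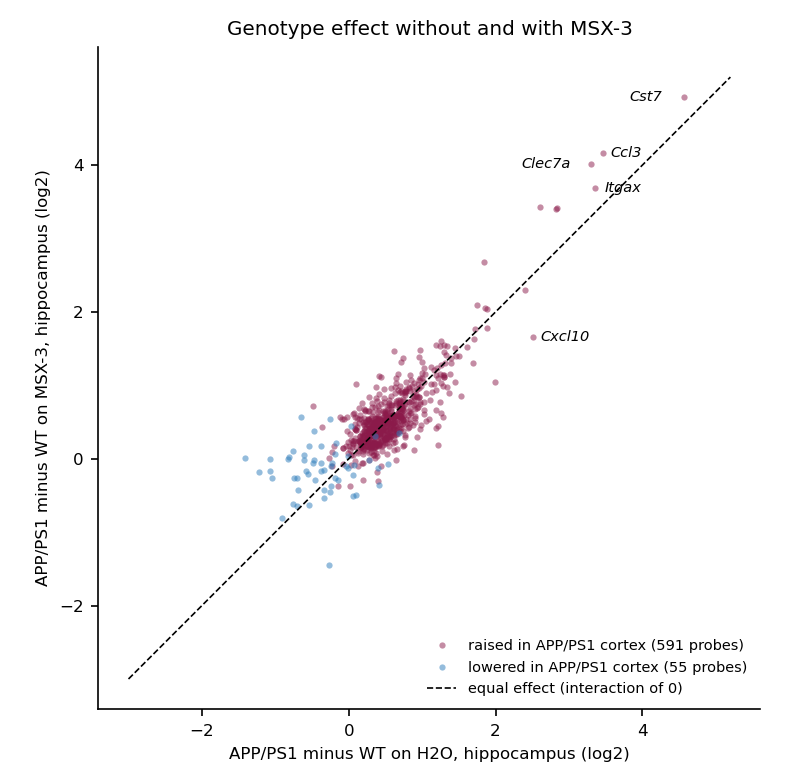
Hippocampal genotype effect (APP/PS1 minus WT, log2) on MSX-3 against that on water, for 591 probes raised and 55 lowered in APP/PS1 cortex. The raised probes follow the line of equal effect, with medians of 0.50 and 0.49, and the distance of a point from the line is its interaction, as for Clec7a (0.72) above it and Cxcl10 (-0.85) below it.

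Among the lists of immune genes, interferon-stimulated genes had the lowest median. Complement genes also lay on the negative side, with a median of -0.11 and 7 of 10 negative. Of 15 kept genes, 14 had a negative interaction, the median was -0.30, and 2 were at an unadjusted p under 0.05, Irf7 and Cxcl10. None passed the adjustment, and 1 was bounded within 1.5-fold. MSX-3 minus water had a median of 0.22 in WT mice and -0.17 in APP/PS1 mice, and the median genotype effect was 0.99 on water and 0.67 on MSX-3. The genotype effect was called for 11 of the 15 genes on water, against 0.498% of all probes. On MSX-3 it was called for 3, namely Ifi27l2a, Oasl2 and Cxcl10, against 0.391% of all probes. The test of that difference is the interaction itself, which called none.

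Many promoters of these genes hold the element bound by interferon-activated factors, and matches are shown for description only. The list was drawn up as interferon-stimulated genes, so the element is common in it by choice and lends the interaction no support. The interferon-stimulated response element was searched as GAAA, any 2 bases and GAAA again, on both strands and with overlapping matches, in the RefSeq promoter windows of GRCm38.p6, which run from before the transcript start to shortly after it. Over all genes with an entry the share with the motif was 3.99% (1079 of 27025), and over those with a kept probe 3.74% (494 of 13202). Of the 15 genes, 10 had a promoter entry and 7 of these (70.0%) held the motif. A match in 6 of them is printed with the bases around it, 5' to 3' on the strand of the gene, with the motif in capitals, merged where matches overlap (TTTC, any 2 bases and TTTC is the same motif read on the other strand).
Cxcl10, chr5:92349073-92349122, minus strand: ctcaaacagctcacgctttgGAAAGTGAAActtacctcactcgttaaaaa
Isg15, chr4:156200867-156200916, minus strand: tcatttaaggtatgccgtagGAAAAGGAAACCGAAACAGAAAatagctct
Oas1a, chr5:120907526-120907565, minus strand: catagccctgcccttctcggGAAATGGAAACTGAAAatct
Bst2, chr8:71537573-71537622, minus strand: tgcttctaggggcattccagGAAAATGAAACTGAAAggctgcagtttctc
Ifit1, chr19:34640765-34640814, plus strand: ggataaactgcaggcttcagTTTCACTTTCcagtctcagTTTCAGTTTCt
Ifit3, chr19:34583353-34583402, plus strand: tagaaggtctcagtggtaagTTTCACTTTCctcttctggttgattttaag
In Cxcl10 the match began 213 bases before the start, in Isg15 78 bases and in Oas1a 20 bases.

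Irf7, which codes for the transcription factor that amplifies type I interferon production, had the smallest unadjusted p of the list. Its level was between -1.47 and -1.16 (median -1.39) in WT mice on water, between -1.43 and -0.50 (median -1.05) in WT mice on MSX-3, between -0.60 and 0.50 (median 0.02) in APP/PS1 mice on water and between -0.83 and 0.04 (median -0.58) in APP/PS1 mice on MSX-3. The genotypes were apart on water and overlapped on MSX-3. The genotype effect was 1.28 on water (adjusted p 0.000718) and 0.57 on MSX-3 (adjusted p 0.519), and the interaction was -0.71 (-1.30 to -0.13, adjusted p 0.8895). A second, dim Irf7 probe gave -0.62.

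Cxcl10, which codes for a chemokine that draws T cells and is induced by interferons, had the lowest value of the list. Its level was between -5.27 and -3.77 (median -4.50) in WT mice on water, between -4.89 and -3.78 (median -4.04) in WT mice on MSX-3, between -3.08 and -1.30 (median -1.89) in APP/PS1 mice on water and between -2.85 and -1.89 (median -2.53) in APP/PS1 mice on MSX-3. The genotypes did not overlap in either treatment, and the MSX-3 range of APP/PS1 mice fell inside their water range. The interaction was -0.85 (-1.68 to -0.02), with genotype effects of 2.51 on water and 1.66 on MSX-3. Isg15, a ubiquitin-like modifier, gave -0.52 (-1.15 to 0.10), and Usp18, the protease that removes it, -0.47 (-1.15 to 0.22). Ifitm3, a membrane protein that blocks virus entry, also gave -0.47 (-0.97 to 0.04). Ifi27l2a was the exception at 0.16 (-0.61 to 0.92). Ccl5, a chemokine of the same pathway that was not on the list, had -0.23 (-0.94 to 0.47).

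The spread of the interferon genes between mice was wide. The mean level of the list was between -2.45 and -2.29 in WT mice on water, -2.47 and -1.85 in WT mice on MSX-3, -1.71 and -0.73 in APP/PS1 mice on water and -1.78 and -1.0 in APP/PS1 mice on MSX-3. The treatments thus overlapped within each genotype, and the 6 WT mice on water were the tightest group. Leaving out each mouse moved the median interaction of the list between -0.44, without APP/PS1 MSX-3 mouse 319, and -0.21, without APP/PS1 water mouse 261, whose array was also the highest of all for thalamic genes. It was -0.44 with the scan day in the model, -0.18 on the first scan day alone and -0.24 without the 6 arrays rich in choroid plexus genes.

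In the cortex of the same mice the interferon genes lay on the same side. There 14 of 15 were negative, the median was -0.49 and 5 were at an unadjusted p under 0.05, all negative, against 4.66% of all cortex probes in either direction (22 arrays, without 2 on which no spot grid was located). The genes negative in both tissues numbered 13. Irf7 gave -0.64 (-1.21 to -0.06) in the cortex, Oasl2 -0.74, Usp18 -0.54 and Isg15 -0.50, beside -0.71, -0.30, -0.47 and -0.52 in the hippocampus. The lowest cortex values were those of Ifit1 (-0.96) and Zbp1 (-0.95), which were at -0.08 (-1.45 to 1.28) and -0.03 (-1.35 to 1.29) in the hippocampus. No cortex probe was called, and the smallest adjusted p was 0.753. The tissues come from the same animals and are not independent of each other.

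Immediate early genes, which neurons transcribe within minutes of activity and in part through cyclic AMP and CREB, also had nearly all members on the negative side. Of 16 genes, 15 were negative, the median was -0.28, 1 was at an unadjusted p under 0.05 and 3 were bounded within 1.5-fold. The median MSX-3 effect was 0.18 in WT mice and -0.12 in APP/PS1 mice, and no member had a called genotype effect in either treatment. Egr1, a zinc finger transcription factor, was the gene with the smallest unadjusted p. Its level ran from 1.60 to 2.57 (median 2.24) in WT mice on water, from 2.31 to 2.9 (median 2.47) in WT mice on MSX-3, from 2.08 to 2.48 (median 2.33) in APP/PS1 mice on water and from 1.74 to 2.60 (median 2.10) in APP/PS1 mice on MSX-3. All 4 groups overlapped, and the interaction was -0.57 (-1.03 to -0.10, adjusted p 0.8895).

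The intervals of the other members all included 0. Egr2 gave -0.69 (-1.65 to 0.27), Nr4a1, an orphan nuclear receptor, -0.52 (-1.14 to 0.10), Arc, which shapes synaptic AMPA receptor number, -0.49 (-1.19 to 0.21), and Fos -0.49 (-1.33 to 0.36). Nr4a3 was the only positive one at 0.26 (-0.24 to 0.77). Bdnf, the growth factor gene, gave -0.12 (-0.52 to 0.28) and Egr3 -0.08 (-0.43 to 0.28). In the cortex 12 of 16 were negative with a median of -0.25 and 0 at an unadjusted p under 0.05. Without the 6 arrays rich in choroid plexus genes the hippocampal median was -0.36, and on the first scan day it was -0.53.

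The promoters of these genes were searched for the full cyclic AMP response element. TGACGTCA, which reads the same on both strands, occurred in 549 of 27025 genes (2.03%) and in 429 of the 13202 with a kept probe (3.25%). In the list it occurred in 2 of the 12 immediate early genes with a promoter entry (16.7%), Dusp1 and Btg2. Both windows are shown with the element in capitals, since they are the members of the list that carry it whole. No match says only that these letters are not in this window.
Dusp1, chr17:26508588-26508635, minus strand: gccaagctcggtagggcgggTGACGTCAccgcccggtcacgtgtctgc
Btg2, chr1:134079294-134079341, minus strand: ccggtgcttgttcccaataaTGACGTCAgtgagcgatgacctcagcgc
Dusp1, a phosphatase that switches off MAP kinases, had an interaction of -0.23 (-0.66 to 0.20), and Btg2, an antiproliferative gene, one of -0.02 (-0.50 to 0.47).

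**Figure D4:**
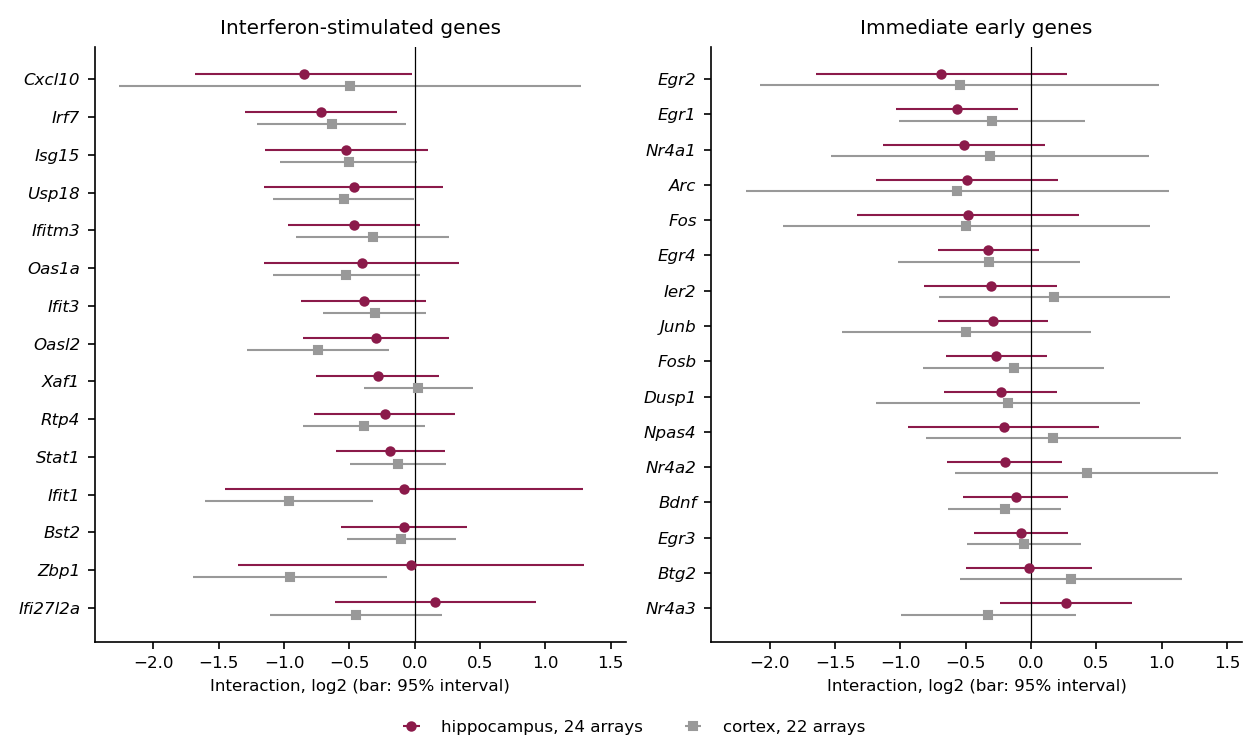
Interaction (horizontal axes, log2) with its 95% interval for 15 interferon-stimulated genes and 16 immediate early genes, in the hippocampus (24 arrays) and the cortex (22 arrays). In the hippocampus 14 of 15 and 15 of 16 values lie below 0, most intervals cross 0, and the intervals of the tissues overlap for every gene.

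Neuronal lists stayed close to the values of bright probes. The 20 synaptic genes had a median interaction of -0.11, 17 negative, 0 at an unadjusted p under 0.05 and 18 bounded within 1.5-fold. Syp, the vesicle protein synaptophysin, gave -0.23 (-0.49 to 0.03), Dlg4, the scaffold PSD-95, -0.17 (-0.50 to 0.15), and Snap25, a SNARE protein of vesicle release, -0.05 (-0.37 to 0.27). The 16 glutamate receptor genes had a median of -0.01, with Gria3, an AMPA receptor subunit, at 0.30 (0.03 to 0.58) and Grm3, a metabotropic receptor, at -0.21 (-0.42 to -0.01). The 18 nuclear genes of the respiratory chain had a median of -0.11, with 16 negative and 17 bounded within 1.5-fold, whereas in the cortex all 18 were positive with a median of 0.19. These genes are bright, and the median of the brightest set of all hippocampal probes was -0.06.

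Among the other neuronal markers, the hippocampal principal cells had a median of -0.02 over 12 genes and the interneurons one of -0.12 over 10. Of the principal cell genes, 4 were positive and 8 negative. Neurod2, a transcription factor of excitatory neurons, was the lowest of them at -0.39 (-0.70 to -0.07) and Camk2a the highest at 0.49 (-0.24 to 1.23). On the interneuron list, Cck, a peptide of basket cells and pyramidal cells, gave -0.32 (-0.61 to -0.02). The genes of amyloid precursor processing and clearance had a median of -0.07 over 15 genes with 12 bounded within 1.5-fold and 0 at an unadjusted p under 0.05. The complement genes had a median of -0.11 over 10, led by C4b, whose genotype effect was 1.02 on water and 0.78 on MSX-3 and whose interaction was -0.25 (-0.51 to 0.02). Reactive astrocyte genes had a median of -0.12 over 13, general astrocyte genes -0.05 over 12, heat shock genes -0.11 over 9 and circadian genes -0.14 over 15. Dbp, a clock output gene, gave -0.42 (-0.81 to -0.03).

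The lists that mark other cells and neighbouring regions moved as well. Of 10 genes of myelinating oligodendrocytes, 9 were negative with a median of -0.45, the lowest median of the 23 lists, and 4 (Mag, Mobp, Cldn11 and Cnp) were at an unadjusted p under 0.05. Mag, a myelin adhesion protein, ran from 2.20 to 2.99 in WT mice on water, from 2.64 to 3.57 in WT mice on MSX-3, from 2.56 to 3.77 in APP/PS1 mice on water and from 2.22 to 3.31 in APP/PS1 mice on MSX-3. The 4 groups overlapped, and the interaction was -0.74 (-1.38 to -0.10). The median of the list was -0.72 without the 6 arrays rich in choroid plexus genes and -0.28 with array weights, and the list had a median of 0.02 in the cortex, with 6 of 10 positive.

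All 9 choroid plexus genes were positive, with a median of 0.58 and none at an unadjusted p under 0.05. Aqp1, the water channel of this epithelium, had an interaction of 1.74 (-1.96 to 5.45), and Ttr, the thyroid hormone carrier transthyretin, one of 1.32 (-4.05 to 6.68). Thalamic genes had a median of -0.30 over 6 and stood high on 1 array in each APP/PS1 group, with list means up to -0.01 on water and -0.57 on MSX-3. Endothelial genes had a median of -0.24 over 10, striatal genes 0.17 over 8 and blood genes 0.05 over 6. Whether the makeup of the dissected tissue has a part in the immediate early or interferon values was not tested, beyond the values without the 6 arrays given with each list.

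**Figure D5:**
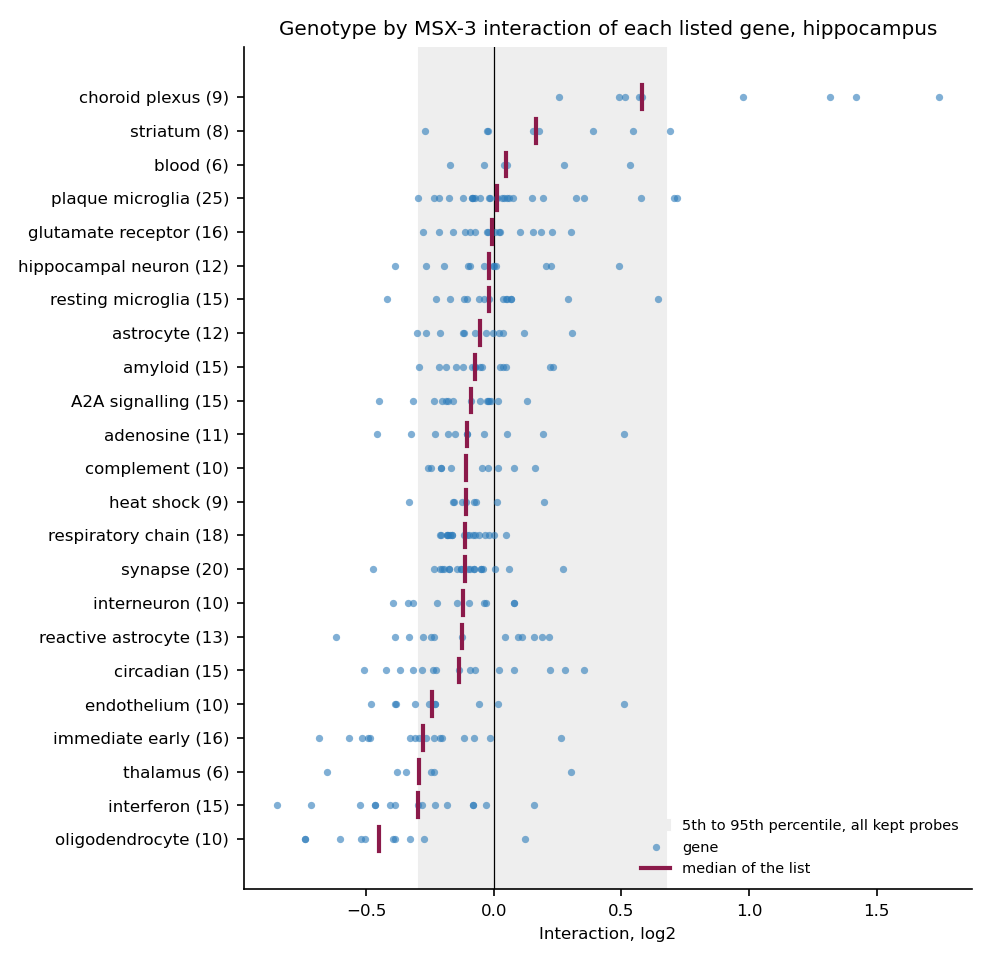
Interaction (horizontal axis, log2) of each kept gene of 23 lists, with the median of the list as a bar and the 5th to 95th percentile of all 38128 probes, -0.29 to 0.67, in grey. Oligodendrocyte, interferon, thalamus and immediate early genes lie to the left, with medians of -0.45, -0.30, -0.30 and -0.28, and choroid plexus genes to the right with 0.58.

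The probes at the positive end were mostly dim. The named genes with the smallest unadjusted p and an interaction of at least 1.5-fold included Slc15a2, Gm2762, Gcnt2, Lcorl, Sec1, Prkci, Fbn1, Gm38457 and Eya4, chosen for their values and therefore described without a test. Slc15a2, the peptide transporter PEPT2, stood first. Its leading probe ran from -5.41 to -4.28 (median -4.99) in WT mice on water, from -6.43 to -5.46 (median -5.94) in WT mice on MSX-3, from -6.89 to -5.99 (median -6.16) in APP/PS1 mice on water and from -6.10 to -3.98 (median -5.41) in APP/PS1 mice on MSX-3. WT mice on water did not overlap with WT mice on MSX-3 or with APP/PS1 mice on water. The interaction was 2.03 (1.2 to 2.87), a 4.09-fold difference, but the probe was well above background on 4, 0, 0 and 3 of 6 arrays in these groups, so that the size rests on signals near background, and under normexp background correction it was 0.38. The filter kept this leading probe only through WT mice on water, where its median was highest. As it was also chosen by its p, its shape and interval are described only and lend an interaction no support. The other 3 probes of Slc15a2 were positive too, with 0.57 on the brightest, 0.21 and 0.71.

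Other dim genes had the same shape, high in WT mice on water and APP/PS1 mice on MSX-3. Eya4, a transcriptional coactivator and phosphatase, gave 1.96 on a dim probe, which was above background on 3, 2, 0 and 4 arrays, and 0.13 on a brighter one. The filter kept the dim Eya4 probe only through APP/PS1 mice on MSX-3, a group where it was high. Sec1, a fucosyltransferase gene, gave 1.67 (0.77 to 2.58). Under normexp Eya4 fell to 0.37 and Sec1 to 0.41. Gm38457 was the only gene of the set with group medians above 0, at 1.13, 0.73, 0.87 and 1.07, and an interaction of 0.59 (0.25 to 0.93). Fbn1, which codes for the microfibril protein fibrillin 1, was above background on all 24 arrays, with 0.68 (0.29 to 1.07) on the leading probe and 0.38 on a brighter one. The brightest probes of Gcnt2 and Prkci did not share the size of the leading ones, at 0.06 against 0.81 for Gcnt2 and at -0.08 against 0.76 for Prkci.

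The 10 genes at the negative end, chosen in the same way, were Avpr1b, Taf7, Gm28523, Thbd, Crh, Lamc3, Asb2, St6galnac3, Rpph1 and Enpp1. Avpr1b, the vasopressin receptor that marks area CA2 in the hippocampus, ran from -4.35 to -2.99 (median -3.61) in WT mice on water, from -3.70 to -2.70 (median -3.41) in WT mice on MSX-3, from -3.30 to -2.26 (median -2.95) in APP/PS1 mice on water and from -4.06 to -3.70 (median -3.79) in APP/PS1 mice on MSX-3. Within APP/PS1 mice the water and MSX-3 arrays did not overlap, while WT mice did. The interaction was -1.34 (-1.97 to -0.71), and -0.64 under normexp. Crh, corticotropin-releasing hormone, gave -0.62 (-0.98 to -0.25), with medians of -2.46 and -2.05 in WT mice and -2.10 and -2.29 in APP/PS1 mice.

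The remaining genes of the set lay between -0.97 and -0.59. Thbd, the endothelial anticoagulant receptor thrombomodulin, gave -0.74 (-1.15 to -0.32), Lamc3, a laminin chain of basement membranes, -0.64 (-1.04 to -0.24), and Enpp1, an enzyme that makes pyrophosphate, -0.97 (-1.60 to -0.34). Rpph1, the RNA of ribonuclease P, gave -0.71 (-1.18 to -0.25), Taf7, a subunit of the general transcription factor TFIID, -0.68 on a dim probe and -0.21 on a brighter one. St6galnac3, a sialyltransferase, gave -0.65 on its leading probe and 0.70 on a dimmer one. Asb2, part of a ubiquitin ligase, gave -0.59, and the uncharacterized Gm28523 -0.71. All 10 adjusted p were 0.8895.

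Some leading genes had other values in the cortex, without passing the test of the difference. Gcnt2, an enzyme that branches cell surface glycans, gave 0.81 in the hippocampus and -0.09 (-0.66 to 0.49) in the cortex, and Crh gave -0.62 and 0.15 (-0.35 to 0.65). The difference between the tissues, taken within each of 22 mice, was 0.90 for Gcnt2 and -0.83 for Crh, and both had an adjusted p of 0.327, the smallest of all 36743 probes. No probe was called for this difference. At an unadjusted p under 0.05 were 4960 of the 36743 with the pairing by mouse and 2450 without it, so the count depended on the model. For the hippocampal interaction that count was 1852 of 38128. Adcy8 had the widest gap among the genes of A2A receptor signalling, -0.45 in the hippocampus against 0.75 (0.34 to 1.16) in the cortex, a difference of -1.21 with an adjusted p of 0.327. A second, dimmer Adcy8 probe gave -0.18 in the hippocampus. Of the cortex probes, 1756 (4.66%) were at an unadjusted p under 0.05 for the interaction.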

How the data were processed

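Total RNA of hippocampus and cortex was hybridised to 1-colour Agilent arrays, and replicate arrays are separate mice. The deposited intensity values are signals that the authors' scanner software, Agilent Feature Extraction 10.7.3.1 per the submitters' processing notes, had corrected for background, without normalization between arrays. The series table held the same values (3022848 of 3022848, relative tolerance 1e-06). Control spots (3671 of 62976) and outlier spots were left out, log2 intensities had the 75th percentile of the array's non-control spots subtracted, and spots of a probe were averaged, giving 56605 probes. A probe was kept (38128 were) if at least 4 of the 6 arrays in any group read it well above background. RefSeq accessions named 32994 probes and the study's probe tables a further 59, while 23552 had no name and are not described. Some genes are not reported here.

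Groups were fitted with limma 3.58.1 (lmFit, eBayes) under R 4.3.3, p-values were adjusted by Benjamini and Hochberg over all kept probes, and intervals are 95% intervals of the fit. The fit was tested on simulated data. Named genes were the drug target and transgenes, the immune genes the study names, the 10 genes in each direction with the smallest unadjusted p and at least 1.5-fold, and members of gene lists. Further list members were named after their values were seen. The brightest kept probe stood for a gene in lists. Members and lists were chosen with earlier results of these data known. The number of arrays limits the precision. Alternatives covered background correction, scaling, filters, variance model, array weights, slide, scan day and leaving out each mouse. The tissue difference was paired by mouse, as the mouse number in the titles is the same in both tissues.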

Additional observations from a re-analysis of the deposited data

Results flagged for a closer look

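Of 76 groups of 6 arrays examined, 6 held an array far from the other 5, and chance gives about 1 in 20 groups. Adora2a was at -1.56 in WT water mouse 71, against -3.53 to -2.92 in the other mice of that group. Prnp was at 5.12 in WT MSX-3 mouse 298, against 5.42 to 5.58. Itgax was at -1.81 in APP/PS1 water mouse 323, against -2.55 to -2.32. The mean level of the choroid plexus genes was 1.70 in WT MSX-3 mouse 303 (others -1.72 to -0.86), 2.65 in APP/PS1 water mouse 259 (others -2.37 to -1.27) and 2.24 in APP/PS1 MSX-3 mouse 283 (others -2.27 to -1.01).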

How the results depend on the processing

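The count of called probes was 0 under every alternative tried and in each of the 24 fits without 1 mouse, with a smallest adjusted p of 0.356 with array weights and of 0.305 without 1 mouse. The number of probes at an unadjusted p under 0.05 (1852) was 1132 with normexp, 3184 with array weights, 1078 with the scan day as a block and 1132 without the 6 arrays rich in choroid plexus genes, an alternative chosen after seeing the data. It ran from 1267 to 3335 with 1 mouse left out, reaching 3129 without WT MSX-3 mouse 298 and 3335 without APP/PS1 MSX-3 mouse 293. The causes were not tested. Median scaling moved the median of all probes to -0.12 and the positive share to 32.7%, with 576 positive and 1214 negative probes at an unadjusted p under 0.05.

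Small values turned sign, those under median scaling because it lowers every probe by the same amount. Cd68 (0.03) was -0.010 with normexp, -0.11 with median scaling, -0.032 with array weights, -0.037 and -0.0048 with the slide as a fixed and a random block, -0.052 on the first scan day, and -0.026 to 0.10 with 1 mouse left out. Gfap (0.10) was -0.050 with median scaling, -0.022 with array weights and -0.0057 to 0.16 with 1 mouse left out. Prnp (0.05) was -0.093 with median scaling, -0.14 on the first scan day and -0.0075 to 0.089 with 1 mouse left out. Tlr2 (0.12) was -0.025 with median scaling and -0.044 on the first scan day, and Itgax (0.32) was -0.12 with normexp. The medians of the interferon, immediate early and oligodendrocyte lists stayed below 0 in all 17 alternatives. Not all of these could move a list median. The series table values, keeping the dim probes and the other variance model leave the interaction of these genes unchanged, and median scaling lowers every value. The lowest and highest fits without 1 mouse are counted among the 17. Without the replicate block by mouse, the difference between the tissues had 0 called probes and 2450 at an unadjusted p under 0.05, and the cortex with all 24 arrays had 0 called and 168. Low signal over background limits the dim probes, of which 15.3% in the dimmest of 3 equal sets were bounded within 1.5-fold.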
